A study of Ovis aries with 8 samples.

Results

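The endothelin receptors EDNRA and EDNRB and the angiotensin II type 1 receptor AGTR1 were examined in carotid arteries of sheep fetuses. Members were all non-control array probes that name one of these 3 genes by gene name, older name or description. This gave 3 of the 705 genes named here, with 5 of the 15008 probes on the array. EDNRA had 2 probes, A_70_P012586 and A_70_P012587, under the older name ETAR. EDNRB had 2 probes, A_70_P041851 and A_70_P041852, under the older name ETBR. AGTR1 had 1 probe, A_70_P030096, under the older name AT1-R. Their relative levels on each array and their response to long-term maternal hypoxia were described.

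Endothelin-1 is a peptide that contracts vascular smooth muscle through the endothelin A receptor, while the endothelin B receptor on endothelium prompts release of relaxing factors and clears the peptide. Angiotensin II is made by angiotensin-converting enzyme and contracts arteries mainly through the type 1 receptor. The type 2 receptor is typically abundant in fetal tissues and declines around birth. All these receptors couple to G proteins, and in smooth muscle EDNRA and AGTR1 raise intracellular calcium.

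Each of 8 fetuses gave RNA for 1 Agilent array of ovine probes, read in a single colour, at day 140 of gestation. The 4 hypoxia fetuses came from ewes kept at 3801 m from gestation day 30 to day 135. The sample titles give 110 days of hypoxia, which does not match that span, and the labels do not settle which is right. The 4 normoxia fetuses came from ewes kept at 300 m, which the titles call sea level. The labels give no strain, sex or further treatment, both groups were fed alfalfa, and the fetuses are told apart by a number only. The p-values below therefore reflect how far these samples spread, which may in part be technical. All levels below are log2 processed signal minus the log2 of the array's 75th percentile, so a level of 0 is the brightness that 75 percent of that array's probes do not exceed. A probe counts as measured above background on an array where the scanner software marked it well above background. Levels of different probes were not ranked against each other, because the brightness of a probe also depends on how well it binds.

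Hypoxia 1 was the dimmest array and normoxia 3 the brightest, with 75th percentiles of the signal of 96.8 and 1366. Between 59.6% (normoxia 4) and 94.8% (hypoxia 3) of the probes were well above background. Arrays with the same number in both groups deviated together from their group means. Of the 14 smooth muscle markers looked for, 3 had a named probe (CNN1, MYLK and MYL6), and these were well above background on all 8 arrays. Of the 14 endothelial markers 7 had a named probe, of which 3 to 7 were well above background on an array. ACTA2, MYH11, PECAM1 and VWF had no probe named here. Whole vessels were measured, so fewer cells of a type and less RNA per cell cannot be told apart.

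**Figure D1:**
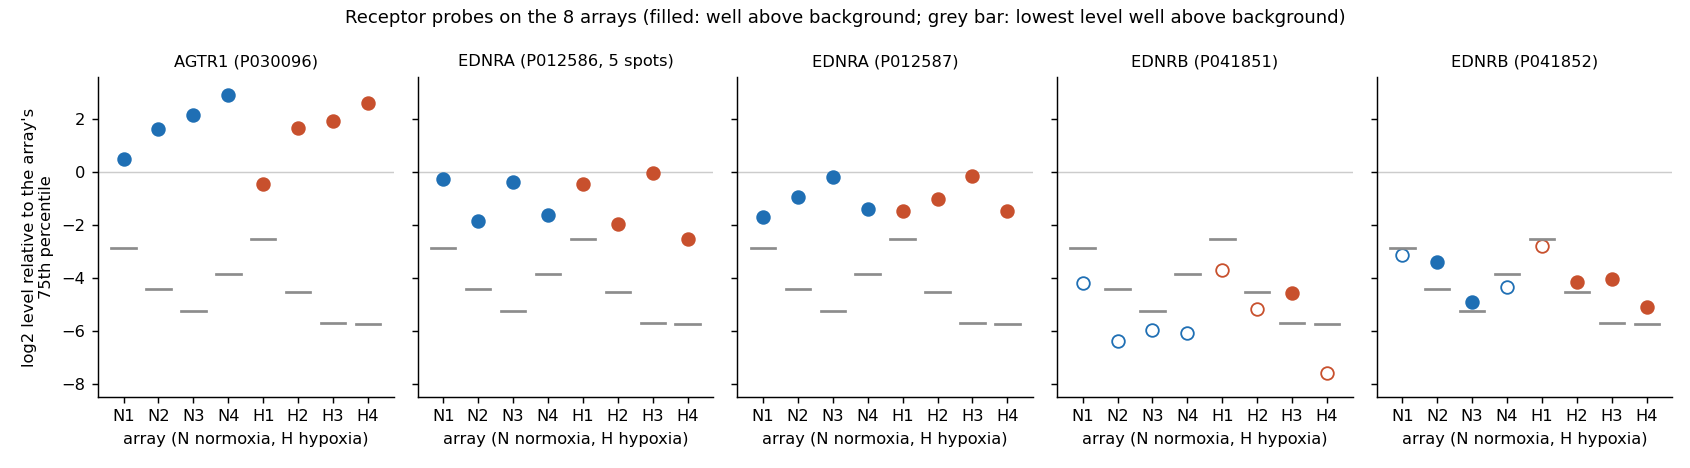
Level of each receptor probe on each array, on a log2 scale relative to the array's 75th percentile (N normoxia, blue; H hypoxia, red). Filled points are well above background, open points are not, and grey bars mark the lowest level that was well above background on that array. AGTR1 and both EDNRA probes are filled on all 8 arrays, while the EDNRB probes are filled on 1 and 5 arrays.

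AGTR1, the main contractile receptor for angiotensin II, was well above background on all 8 arrays and lay above the 75th percentile on 7 of them. Its level was 0.50, 1.63, 2.17 and 2.91 on normoxia arrays 1 to 4. It was -0.45, 1.66, 1.94 and 2.61 on hypoxia arrays 1 to 4. Both arrays numbered 1 were the lowest of their group and both arrays numbered 4 the highest, and the groups overlapped nearly throughout. On the scale of the processed signal, AGTR1 ran from 71.0 on hypoxia 1 to 6146 on normoxia 3, which were also the dimmest and the brightest array. The summed linear level of the 3 smooth muscle markers was 480, 821, 421 and 1175 on normoxia arrays 1 to 4. It was 203, 696, 464 and 878 on hypoxia arrays 1 to 4. The sum was lowest on hypoxia 1 and highest on normoxia 4, as AGTR1 was. The order of the other arrays differed, since both arrays numbered 3 were below normoxia 1 in the sum and above it in AGTR1. The part of smooth muscle content in this spread was not tested.

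EDNRA, the contractile endothelin receptor, was well above background on all 8 arrays by both probes and stayed below the 75th percentile on each. Probe A_70_P012587 was at -1.69, -0.92, -0.16 and -1.40 on normoxia arrays 1 to 4 and at -1.46, -1.02, -0.14 and -1.47 on hypoxia arrays 1 to 4. Array 3 was the highest of each group, and the 4 values of one group nearly matched the 4 of the other. Probe A_70_P012586, printed on 5 spots, was at -0.25, -1.84, -0.38 and -1.63 on normoxia arrays 1 to 4. On hypoxia arrays 1 to 4 it was at -0.43, -1.96, -0.02 and -2.53. By this probe arrays 1 and 3 were high and arrays 2 and 4 low, in both groups.

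The EDNRA probes therefore ordered the arrays differently. Their difference on the same array, A_70_P012586 minus A_70_P012587, was 1.44, -0.92, -0.21 and -0.23 in normoxia. It was 1.03, -0.94, 0.11 and -1.06 in hypoxia, so only the arrays numbered 1 stood more than 1 log2 unit above 0. The SD over the 5 spots of A_70_P012586 on an array was 0.105 to 0.203 log2 units, which is well below most of these differences. Over the 8 arrays the probes had a Pearson r of 0.36 and a Spearman rho of 0.29, as a description of arrays that differ in brightness. The mean difference between the probes was 0.24 lower in hypoxia, with an exact permutation p of 0.686 (two-sided, 4 against 4 arrays). Skeletal muscle markers, of which 8 of 14 had a named probe, varied along with A_70_P012586. Of these 8, 5 to 8 were well above background on arrays 1 and 3 of both groups, against 2 on each of arrays 2 and 4. Their summed linear level was 1.30 to 3.06 in normoxia and 1.34 to 2.85 in hypoxia. MYOD1 and MYOG were among them, and no marker was below background on all arrays. The pattern was not particular to skeletal muscle. The summed level of 3 adipocyte markers was 1.19, 0.42, 0.75 and 0.38 on normoxia arrays 1 to 4 and 1.19, 0.35, 0.68 and 0.14 on hypoxia arrays 1 to 4. That of 6 leukocyte markers was 3.28, 1.71, 2.68 and 1.93 in normoxia and 2.74, 0.93, 2.18 and 0.86 in hypoxia. For all 3 lists arrays 1 and 3 were higher than arrays 2 and 4 in each group. The median of all probes in the authors' table, relative to the 75th percentile, split the arrays alike. It was 0.33, 0.13, 0.23 and 0.14 on normoxia arrays 1 to 4 and 0.33, 0.16, 0.31 and 0.14 on hypoxia arrays 1 to 4. The pattern was thus not particular to these markers, and the part of other tissue in the EDNRA values was not tested.

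EDNRB, the endothelin receptor typical of endothelium, lay near the detection limit. Probe A_70_P041852 was measured above background on 5 arrays, which were normoxia 2 and 3 and hypoxia 2, 3 and 4. Its level was -3.12, -3.40, -4.91 and -4.33 on normoxia arrays 1 to 4 and -2.79, -4.17, -4.03 and -5.09 on hypoxia arrays 1 to 4. The values on normoxia 1 and hypoxia 1 were the highest of their groups, yet they were not well above background, because the lowest level that counted as such was -2.86 and -2.53 on those dim arrays. Among the 5 arrays that measured it, normoxia covered -4.91 to -3.40 and hypoxia -5.09 to -4.03, ranges that overlap. Probe A_70_P041851 was well above background on hypoxia 3 alone, at -4.59, and on none of the normoxia arrays. On the other arrays it was listed between -7.62 and -3.69, and no fold bound could be given, since the mean detection limit of the normoxia arrays lay above its mean in hypoxia. The EDNRB probes had an r of 0.76 and a rho of 0.74 with each other over the 8 arrays. The summed linear level of the 7 endothelial markers was 0.48 to 1.81 in normoxia and 0.61 to 2.57 in hypoxia, and the part of endothelial content in the EDNRB values was not tested.

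No receptor differed between hypoxia and normoxia by more than the spread between fetuses. By limma with Benjamini-Hochberg adjustment, 0 of the 4 receptor probes tested passed 0.05, beside 0 of all 11211 probes tested (0%). At an unadjusted p under 0.05 the counts were 0 of 4 receptor probes and 412 of 11211 probes (3.67%). The mean was higher in hypoxia for 1 of the 4 probes, as it was for 48.7% of all tested probes. The hypoxia and normoxia values overlapped for all 5 receptor probes, while 2.66% of all tested probes had no overlap. In this fit, which leaves out the pairing by number, the 95% interval of each receptor probe reached at least from -1.0 to 1.05. Changes of that size on the log2 scale, in either direction, lie within what this fit allows. The same-numbered pairs of EDNRA probe A_70_P012587 differed by only -0.09 to 0.23, and no interval from a paired fit is given here.

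AGTR1 averaged 1.80 ± 1.02 (SD, n = 4) in normoxia and 1.44 ± 1.32 (SD, n = 4) in hypoxia. The log2 fold change was -0.36 (SE 0.75, 95% interval -2.09 to 1.37) with a limma adjusted p of 0.998. Of the 4 same-numbered pairs 3 were lower in hypoxia, and the differences were -0.94, 0.03, -0.23 and -0.30. The direction turned with the processing, to 0.11 after normexp background correction (0.42 above the median of all tested probes there) and to 0.72 with slide as a block. On hypoxia 1 normexp put all 5 receptor probes between -0.034 and -0.012, so its values hardly told probes apart on that array. Within slide 1 the log2 fold change was 0.56 and within slide 2 0.97, each against 1 normoxia array. Slide 1 set hypoxia 1, 2 and 3 against normoxia 1, and slide 2 set hypoxia 4 against normoxia 2. Arrays were thus not matched by number, and slide and number cannot be told apart in these values. The direction also turned without hypoxia 1, to 0.27, and the value was 0.01 without normoxia 4.

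EDNRA averaged -1.04 ± 0.67 (SD, n = 4) in normoxia and -1.02 ± 0.63 (SD, n = 4) in hypoxia by probe A_70_P012587. The log2 fold change was 0.02 (SE 0.44, 95% interval -1.0 to 1.05). It was 0.04 above the median of all tested probes, and 0.04 above it under median scaling too, where all probes shifted alike. It was 0.05 above that median under quantile normalization, 0.21 above it under normexp and -0.06 relative to it under cyclic loess. Its pair differences, 0.23, -0.09, 0.03 and -0.07, covered the narrowest range of the 5 receptor probes. Within slide 1 the log2 fold change was 0.82 and within slide 2 it was -0.55. Probe A_70_P012586 averaged -1.02 ± 0.83 (SD, n = 4) in normoxia and -1.24 ± 1.20 (SD, n = 4) in hypoxia, a log2 fold change of -0.21 (SE 0.66, 95% interval -1.74 to 1.31). Its pairs differed by -0.19, -0.12, 0.35 and -0.90, and the value was -0.56 within slide 1 and -0.69 within slide 2. Leaving out 1 array at a time moved it between -0.62 (without hypoxia 3) and 0.22 (without hypoxia 4). Both probes had a limma adjusted p of 0.998.

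EDNRB averaged -3.94 ± 0.83 (SD, n = 4) in normoxia and -4.02 ± 0.95 (SD, n = 4) in hypoxia by probe A_70_P041852. The log2 fold change was -0.08 (SE 0.58, 95% interval -1.42 to 1.26, limma adjusted p of 0.998). Pairs 1 and 3 were higher in hypoxia by 0.33 and 0.88, and pairs 2 and 4 differed by -0.77 and -0.76. Within slide 1 it was -0.54 and within slide 2 it was -1.70. Probe A_70_P041851 was too dim for the main test. Without the filter on dim probes its log2 fold change was 0.39 (SE 0.88, 95% interval -1.64 to 2.42, limma p of 0.667), which rests on values below background on 7 of 8 arrays. Its direction turned to -0.67 with slide as a block and to -0.71 after normexp, and it was -0.13 without hypoxia 1.

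**Figure D2:**
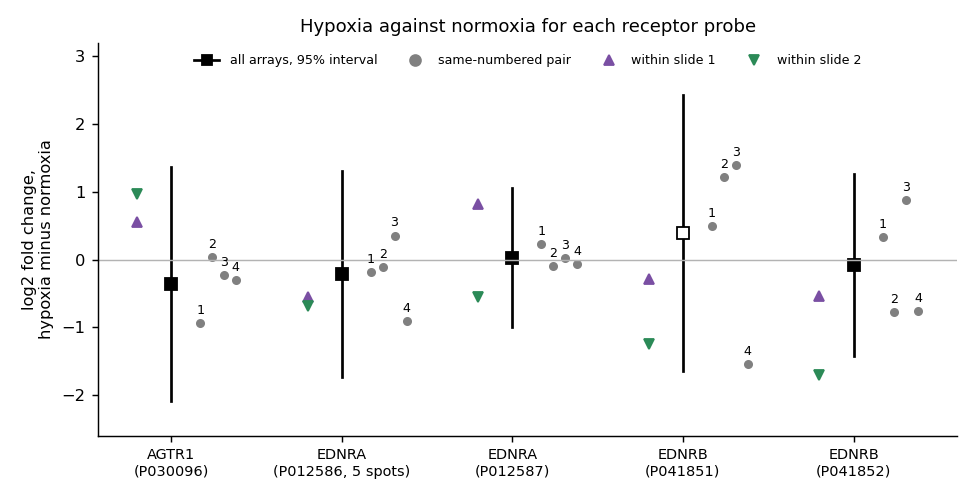
Log2 fold change of each receptor probe, hypoxia minus normoxia. Squares with bars are the estimate over all 8 arrays with its 95% interval (open for the probe below the filter), grey points are the 4 same-numbered pairs, and triangles are the values within slides 1 and 2. Each interval includes 0, and the slide values of AGTR1 are positive while its overall value is -0.36. The slide values do not match the arrays by replicate number.

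A larger share of the variance of the receptor probes lay between replicate numbers than between groups. On average 4 numbers hold the larger share even where neither matters, so the shares are to be read beside those of all tested probes. For AGTR1 94.0% of the variance over the 8 arrays lay between the 4 numbers and 3.02% between hypoxia and normoxia. For EDNRA the numbers held 98.6% by probe A_70_P012587 and 92.3% by A_70_P012586, against 0.0464% and 1.41% for the groups. For EDNRB they held 78.3% by A_70_P041852 and 74.2% by A_70_P041851. The median over all tested probes was 70.7% for the numbers and 6.61% for the groups. The SD over the 8 arrays was 1.11 for AGTR1, 0.60 for EDNRA probe A_70_P012587 and 0.82 for EDNRB probe A_70_P041852, beside a median of 0.64 over all tested probes. What arrays of one number have in common is not given in the labels.

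The balance between receptors was taken as the difference of levels on the same array, where the scaling of the array cancels. The brightest tested probe stood for each gene (A_70_P012587, A_70_P041852 and A_70_P030096). EDNRA minus EDNRB was 1.43, 2.47, 4.74 and 2.93 on normoxia arrays 1 to 4 and 1.33, 3.15, 3.90 and 3.63 on hypoxia arrays 1 to 4. The smallest difference stood on the arrays numbered 1, where EDNRB, as on normoxia 4, was not well above background. It averaged 2.89 ± 1.38 (SD, n = 4) in normoxia and 3.00 ± 1.16 (SD, n = 4) in hypoxia. The change of 0.11 had an exact permutation p of 0.943 (two-sided). Every other pairing of the 4 endothelin receptor probes gave a negative change. With EDNRA probe A_70_P012586 and the same EDNRB probe it was -0.13. With EDNRB probe A_70_P041851, which was well above background on 1 array only, it was -0.60 and -0.37.

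EDNRA minus AGTR1 was -2.19, -2.55, -2.33 and -4.31 on normoxia arrays 1 to 4 and -1.01, -2.68, -2.08 and -4.07 on hypoxia arrays 1 to 4. The arrays numbered 4 were lowest in both groups, and the groups overlapped. The mean moved from -2.85 ± 0.99 (SD, n = 4) in normoxia to -2.46 ± 1.28 (SD, n = 4) in hypoxia, a change of 0.38 with an exact permutation p of 0.686 (two-sided). EDNRB minus AGTR1 was -3.62, -5.03, -7.08 and -7.24 on normoxia arrays 1 to 4 and -2.34, -5.83, -5.97 and -7.70 on hypoxia arrays 1 to 4. It changed by 0.28 between the groups, with an exact permutation p of 0.857 (two-sided). On normoxia 1 and 4 and on hypoxia 1 EDNRB was not well above background, so neither the differences there nor the tests of both EDNRB differences measure the balance of the receptors closely. All 3 pairs had a Benjamini-Hochberg adjusted exact p of 0.943, and the smallest p that 70 assignments allow is 0.0286. Within slides 1 and 2 the changes were 1.36 and 1.15 for EDNRA minus EDNRB, 0.26 and -1.52 for EDNRA minus AGTR1, and -1.10 and -2.67 for EDNRB minus AGTR1.

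**Figure D3:**
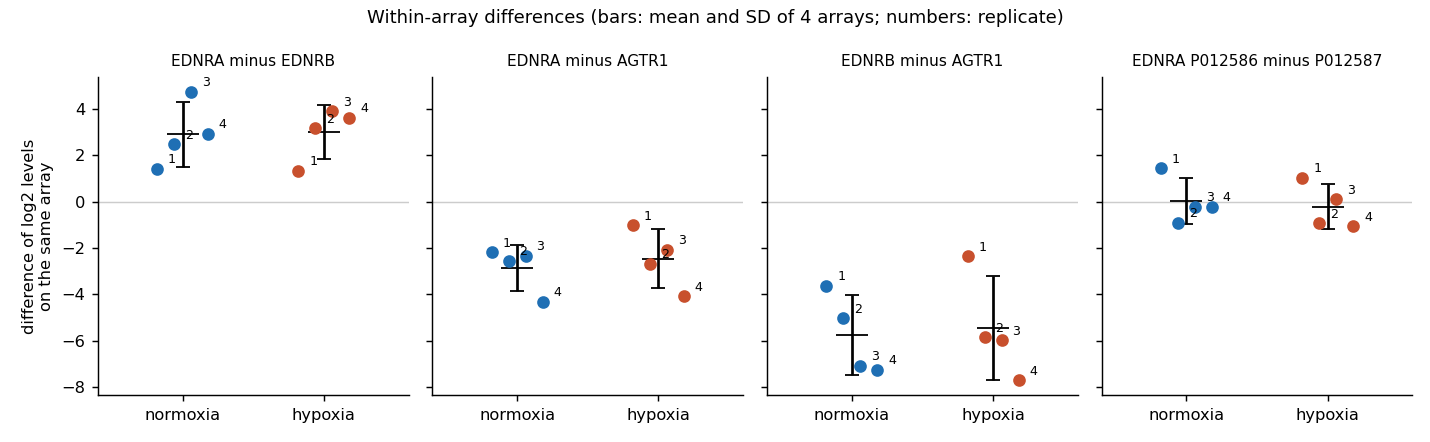
Differences of log2 levels between 2 probes on the same array, by group, with mean and SD of 4 arrays as bars and the replicate number beside each point. From left to right the panels show EDNRA minus EDNRB, EDNRA minus AGTR1, EDNRB minus AGTR1 and the first minus the second EDNRA probe. Hypoxia and normoxia overlap in each panel, and the points numbered 4 are the lowest of both groups in the panels of EDNRA minus AGTR1 and EDNRB minus AGTR1.

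The ligand, the enzymes and the other receptors of both systems were then set beside the members. Of 24 genes listed for the endothelin and angiotensin systems 8 were bright enough to be tested, the 3 receptors above among them. With limma 0 of the 8 passed the adjusted test, 3 had a higher and 5 a lower mean in hypoxia, and the median log2 fold change was -0.22, against -0.02 over all tested probes. Relative to the median of all tested probes 3 of the 8 were higher, as they were under median scaling and quantile normalization, and 2 were under cyclic loess, under normexp and with slide as a block.

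EDN1, the precursor of endothelin-1, was measured above background on 7 arrays, all but normoxia 1. Its level was -2.76, -3.49, -2.77 and -3.44 on normoxia arrays 1 to 4 and -1.94, -3.60, -2.45 and -3.90 on hypoxia arrays 1 to 4. The groups overlapped, and the log2 fold change was 0.14 (SE 0.48). EDNRA minus EDN1 on the same array changed by -0.12 between the groups, with an exact permutation p of 0.771 (two-sided). EDN1 and EDNRA were thus measured above background on at least 7 arrays each. EDNRB was so on 5 by probe A_70_P041852 and on 1 by A_70_P041851.

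AGTR2, the type 2 receptor of angiotensin II, was measured above background by both of its probes on normoxia 2 and 3 and hypoxia 3 and 4. Probe A_70_P017106 was at -3.85, -4.38, -1.20 and -6.07 on normoxia arrays 1 to 4 and at -3.38, -4.46, -3.68 and -5.43 on hypoxia arrays 1 to 4. Normoxia 3 stood above every other array by this probe, and also by A_70_P017107, where it was at -0.98 and the other 7 arrays lay between -6.07 and -3.78. The processed signal of the probes was 593 and 694 on normoxia 3, against 96.0 and 89.6 on hypoxia 3, an array of similar brightness. The log2 fold change was -0.36 (SE 0.98) and -0.34 (SE 0.97), and without normoxia 3 both turned, to 0.53 and 0.66. Without hypoxia 4 it was 0.04 by A_70_P017106 and -0.21 by A_70_P017107, and without normoxia 4 it was -1.09 and -1.04.

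ACE, the enzyme that makes angiotensin II, was well above background by probe A_70_P031641 on arrays 1 and 3 of each group and on no other. Its level was -1.96 and -2.74 on those normoxia arrays and -2.47 and -2.11 on those hypoxia arrays, so the groups overlapped where it was measured. Over all arrays its log2 fold change was -0.82 (SE 1.41), which comes from the arrays where it was not well above background, at -5.91 and -4.46 in normoxia and -6.55 and -7.22 in hypoxia. A further ACE probe was well above background on 1 array of each group, and the other 2, A_70_P031636 and A_70_P031637, on none.

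NR3C2, the mineralocorticoid receptor on which aldosterone acts, was well above background on all 8 arrays by probe A_70_P041846. Its level was -0.78, -3.20, -1.47 and -3.13 on normoxia arrays 1 to 4 and -1.45, -1.94, -1.90 and -2.13 on hypoxia arrays 1 to 4. The hypoxia values of this probe lay inside the normoxia range, with a log2 fold change of 0.29 (SE 0.57). A second probe, A_70_P041847, gave 0.51 (SE 0.53) but was well above background on only 1 array in normoxia and 3 in hypoxia. HSD11B2, which inactivates cortisol and so keeps it from that receptor, was measured above background on 3 arrays in normoxia and 2 in hypoxia, with log2 fold changes of -1.10 (SE 1.44) and -1.04 (SE 1.83) by its probes. Its level by A_70_P051181 was -2.15 on normoxia 4 and -5.96 on hypoxia 4, where it was not well above background, and the other pairs differed by -1.01, 0.05 and 0.39.

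**Figure D4:**
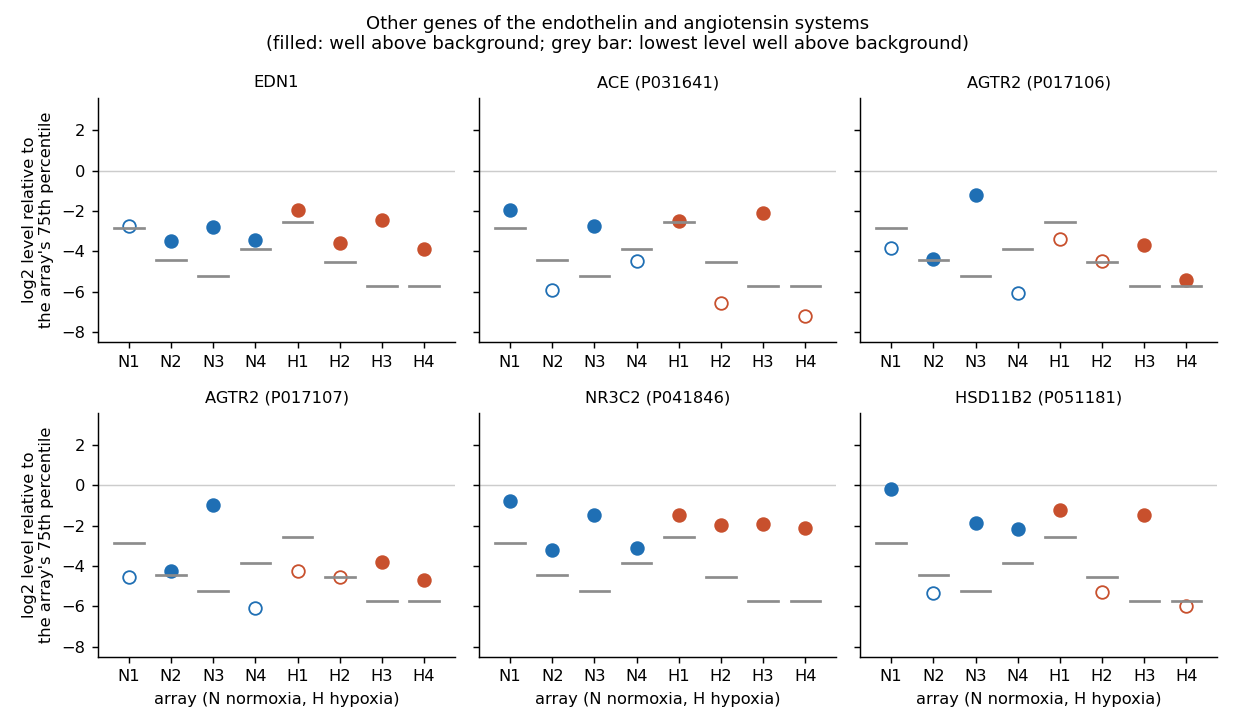
Levels of EDN1, ACE, AGTR2 (by 2 probes), NR3C2 and HSD11B2 on each array, on a log2 scale relative to the array's 75th percentile (N normoxia, blue; H hypoxia, red; filled, well above background; grey bars, lowest level well above background). ACE is filled on arrays 1 and 3 of both groups, and AGTR2 is highest on normoxia 3, at -1.20 and -0.98.

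Other receptors that act on vessel tone gave no call either. Of 52 such genes 11 had a named probe and 6 could be tested, 2 with a higher and 4 with a lower mean in hypoxia, 0 passing the adjusted limma test, and with a median log2 fold change of -0.43. The smallest p-values belonged to PTGFR, the receptor of prostaglandin F2 alpha (-1.02, SE 1.34, limma p of 0.467), and OXTR, the oxytocin receptor (-0.94, SE 1.63, limma p of 0.581). Both were measured above background on 3 arrays in normoxia and 2 in hypoxia. A second tested OXTR probe gave -0.16 (SE 1.34).

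Of 57 genes of receptor coupling and contraction 8 had a named probe, all 8 could be tested and 0 passed the adjusted limma test. The mean was higher in hypoxia for 5 and lower for 3, with a median log2 fold change of 0.22, which was -0.24 under normexp, where the median of all tested probes was -0.31. RAC1, a small GTPase downstream of many receptors, had the smallest p. Its log2 fold change was 0.99 (SE 0.36, limma p of 0.0257, adjusted p of 0.998), and it was higher in hypoxia in 4 of 4 same-numbered pairs. A second RAC1 probe gave 0.98 (SE 0.32). PRKG1, the cGMP-dependent kinase that opposes contraction, followed at 0.66 (SE 0.67, limma p of 0.354) by probe A_70_P026766. Its other tested probes had the opposite sign, -0.09 (SE 0.98) for A_70_P041061 and -0.53 (SE 1.24) for A_70_P041062. MYLK, the kinase that starts contraction by phosphorylating myosin light chain, had a log2 fold change of -0.59 (SE 0.66, limma p of 0.394). It was higher in hypoxia in 2 of 4 same-numbered pairs.

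The genes whose level over the 8 arrays was most like that of each receptor were taken from 548 named genes, by Pearson r and as a description of arrays that share their brightness. For EDNRA probe A_70_P012587 alone, which A_70_P012586 did not follow, these were BAMBI (0.91), the gap junction gene GJA1 (0.89), CPE (0.88), the Notch ligand JAG1 (0.87) and FBLN1 (0.83), against a median r of 0.07 over all tested probes. Without the arrays farthest from the median of that probe, hypoxia 3 and normoxia 3, their r was between 0.18 and 0.71. For EDNRB probe A_70_P041852 they were the collagen gene that the array calls COL6A1 (0.92), TLR6 (0.89), CD80 (0.88), MET (0.88) and SERPINA1 (0.87), against a median r of 0.18. Without hypoxia 1 and hypoxia 4 their r was between 0.70 and 0.89. This EDNRB probe was well above background on 5 arrays, COL6A1 and SERPINA1 on 4, TLR6 and CD80 on 6 and MET on 7. The r values for EDNRB therefore rest in part on values near background. For AGTR1 they were the histone gene H2AZ1 (0.95), the potassium-chloride cotransporter SLC12A4 (0.95), PRSS23 (0.94), KIAA2013 (0.93) and TLR3 (0.92), against a median r of -0.29. Without hypoxia 1 and normoxia 1 their r was between 0.52 and 0.73, so the likeness to AGTR1 was lower without the arrays numbered 1.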

How the data were processed

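Per the file headers, the deposited values are linear spot intensity from Agilent Feature Extraction, version 9.5.3.1. Background subtraction and detrending had been applied to it, and arrays had not been scaled to each other. The table deposited by the authors for the whole series holds a ratio. Judged by its values, it is the processed intensity divided by each array's 75th percentile, with a floor of 0.01. Its columns had medians of 0.328, 0.132, 0.228 and 0.137 for normoxia 1 to 4 and of 0.326, 0.158, 0.308 and 0.141 for hypoxia 1 to 4. After log2 they correlated with the scanner values at 0.995 (hypoxia 4) or more, and why the authors chose this scale is not given in the sources used here.

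From the 15744 spots of an array, 536 controls and any outlier spots were removed, after which 72 probes lacked a value on at least 1 array. Spots of a probe were averaged as log2 processed intensity minus the array's 75th percentile. Probes marked well above background on 4 or more of the 8 arrays were tested. Names came from the files and from RefSeq genes of assembly ARS-UI_Ramb_v3.0, for 1249 probes of 705 genes. Groups were compared with lmFit and eBayes of limma 3.58.1 (R 4.3.3, with the package data.table at 1.17.8), with Benjamini-Hochberg adjustment over 11211 probes and a threshold of 0.05. Exact permutation tests served the within-array differences. The procedure was tested on simulated data.

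Members, lists and tests were chosen with earlier results of these data known. Named were all receptor probes, all measured genes of the endothelin and angiotensin list (1 gene of it is not reported here), the 2 genes with the smallest p of the other lists and those without overlap, and the 5 genes most like each receptor. MYLK and the dim ACE probes were added after their values were seen. Other marker lists were adventitial fibroblasts (3 of 8 markers with a named probe), leukocytes (6 of 10), erythroid cells (2 of 6), adipocytes (3 of 5), thyroid and thymus (1 of 8), liver (5 of 9) and nerve and glia (0 of 9).

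The replicate numbers were taken to pair the arrays, because arrays of one number deviated together from their group means, with correlations of 0.820, 0.726, 0.584 and 0.434 for numbers 1 to 4. The pairing is read from the values, and the labels give no meaning to the numbers. Normoxia 2 was closer to hypoxia 4, its slide partner (0.801), than to hypoxia 2. Hypoxia 3 was nearly as close to normoxia 1 (0.578) as to normoxia 3. Slide 1 held normoxia 1 and hypoxia 1, 2 and 3, slide 2 held normoxia 2 and hypoxia 4, and slide 3 held normoxia 3 and 4, per the file headers. Alternatives were other scalings, normexp, other filters, array weights, the replicate number or slide as a block, other probes and leaving out each array. Only 8 arrays limit the precision. The adult arteries that the series design mentions were not analysed here.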

Additional observations from a re-analysis of the deposited data

How the results depend on the processing

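No alternative called any receptor probe, so each result stayed on its side of the threshold while several changed direction. The limma adjusted p over the alternatives ranged from 0.557 to 1.0 for AGTR1, from 0.731 and 0.940 upward for EDNRA, and from 0.727 and 0.826 upward for EDNRB. With the replicate number as a block the adjusted p was 0.731 and 0.956 for EDNRA (A_70_P012586 and A_70_P012587), 0.845 and 0.929 for EDNRB (A_70_P041851 and A_70_P041852) and 0.557 for AGTR1, and this block on the pairing changed no call, with 0 of 11211 probes called. EDNRA by A_70_P012587 became -0.16 under median scaling, -0.11 under cyclic loess, -0.10 under normexp, -0.029 with array weights and -0.55 within slide 2. Under median scaling all probes shifted alike, so that change says nothing of EDNRA itself. EDNRB by A_70_P041851 became -0.71 under normexp, -0.67 with slide as a block and -0.29 and -1.24 within slides 1 and 2. AGTR1 became 0.11 under normexp, 0.72 with slide as a block and 0.56 and 0.97 within slides 1 and 2. EDNRA minus EDNRB became -0.60 with A_70_P012586 and A_70_P041851, -0.13 with A_70_P012586 and A_70_P041852 and -0.37 with A_70_P012587 and A_70_P041851. EDNRA minus AGTR1 became -0.21 under normexp and -1.52 within slide 2, and EDNRB minus AGTR1 became -0.76 under normexp and -1.10 and -2.67 within slides 1 and 2. The causes were not tested.

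Leaving out 1 array at a time gave -0.62 to 0.22 and -0.27 to 0.32 for EDNRA (A_70_P012586 and A_70_P012587). It gave -0.13 to 1.18 and -0.49 to 0.27 for EDNRB (A_70_P041851 and A_70_P041852) and -0.80 to 0.27 for AGTR1. The within-array changes ran from -0.38 to 0.72, from -0.10 to 0.92 and from -0.76 to 1.02 for EDNRA minus EDNRB, EDNRA minus AGTR1 and EDNRB minus AGTR1. AGTR2 ran from -1.09 to 0.53 (A_70_P017106) and from -1.04 to 0.66 (A_70_P017107). The count of probes called stayed at 0. Other scalings moved the median of all probes from -0.02 to -0.20 (median scaling) and -0.31 (normexp). Under normexp AGTR1 on hypoxia 1 was at -0.01, against -0.45 in the main values. All 5 receptor probes lay between -0.034 and -0.012 there, also those not well above background, so normexp hardly told probes apart on that array. A value within a slide has a single normoxia array behind it, and slide as a block gives a weighted mean of both such values. Neither matches the arrays by replicate number. The difference EDNRA minus EDN1, the pair differences, the values relative to the median and the AGTR2 values without 1 array were added after the data were seen. AGTR1 minus AGTR2 is not given, because AGTR2 was not well above background on 4 arrays. Signal over background limits EDNRB, ACE and AGTR2.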
